A study of Homo sapiens with 3 samples.

Results

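The end of the short arm of chromosome 7 was examined as a stretch of densely spaced ChIP-seq peaks of 2 chromatin proteins, Spindlin1 and C11orf84. Its members are all deposited peaks of both proteins whose summit lies on chromosome 7 between 0 and 6.5 Mb in the human genome build hg19. They number 3218 of 153468 Spindlin1 peaks (2.10%) and 3187 of 177639 C11orf84 peaks (1.79%). The stretch was picked because peaks crowd there, so the crowding itself is given as a description and supports nothing further.

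The peaks come from U2OS, a line of human osteosarcoma cells. The cells had received no treatment and were fixed with formaldehyde before immunoprecipitation with an antibody to Spindlin1 or to C11orf84, 1 library each. The series also has an Input sample without antibody, and no file of it was used here. With 1 library per antibody there was no replicate and no test, and the ranges in brackets are 95% intervals for counting error alone that take peaks as independent, which neighbouring peaks are not.

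Spindlin1 is a reader of the histone H3 tail, whose Tudor-like domains bind H3 that carries methyl groups on lysine. It is known as a coactivator, among others of Wnt target genes. C11orf84, also called SPINDOC, docks onto Spindlin1 and is known to bear on its activity, so the comparison of both lists shows which sites were called for the pair and which for one of them alone.

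The outer part of the short arm of chromosome 7, band 7p22, is known to be rich in genes. In a RefSeq gene table of the assembly GRCh38.p14, 46 genes of this part of the arm, chosen from background knowledge, were found in the following order, which is given for orientation only. The outermost are FAM20C, a kinase of secreted proteins, PDGFA, a growth factor for mesenchymal cells, PRKAR1B, a regulatory subunit of protein kinase A, and SUN1, a protein of the nuclear envelope. Inward of them follow GPER1, a membrane receptor for oestrogen, INTS1 of the Integrator complex, MAFK, a small Maf transcription factor, and MAD1L1, a component of the spindle checkpoint. Then come EIF3B, a subunit of a translation initiation factor, LFNG, which modifies Notch receptors with sugar, GNA12, a G protein subunit, and SDK1, a cell adhesion protein. The innermost of those named here are FOXK1, a forkhead transcription factor, ACTB, the cytoplasmic beta actin, FSCN1, an actin bundling protein, PMS2, of DNA mismatch repair, and RAC1, a small GTPase of actin dynamics. Peaks were not placed on genes and no peak sequence is printed, because the table and the sequences at hand are of another build than the peaks.

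The first Spindlin1 summit lay at 45946 and the first C11orf84 summit at 45920, so peaks of both proteins began within the outermost 100 kb. At the inner edge, the last Spindlin1 peak inside the stretch had its summit at 6497441 (10 fragments, fold 5.54) and the first outside at 6521232 (13 fragments, fold 5.33). For C11orf84 the last inside lay at 6496766 (9 fragments, fold 4.74) and the first outside at 6504182 (10 fragments, fold 5.40). The edge at 6.5 Mb does not coincide with the end of the crowded part: between 6.5 and 7 Mb there were still 126 Spindlin1 and 117 C11orf84 peaks, and between 7 and 7.5 Mb there were 7 and 5. Fold here is the authors' deposited ratio, taken as the signal at the summit over the local background, and a fragment is 1 unit of summit depth as recovered from the deposited fold and p-value.

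Peaks covered 1396 kb of the 6500 kb for Spindlin1 (21.5%) and 1595 kb for C11orf84 (24.5%). They formed 3425 separate regions when both lists were joined, with a median gap of 440 bp between neighbours. Both proteins covered the same 1165 kb, or 83.4% of the Spindlin1 and 73.0% of the C11orf84 territory. In 65 bins of 100 kb, Spindlin1 peaks numbered between 2 and 98 with a median of 48, and C11orf84 peaks between 1 and 90 with a median of 52. The 2 profiles ran closely together, with a Pearson correlation of 0.968 over the 65 bins, a description of bins that share the same DNA.

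**Figure D1:**
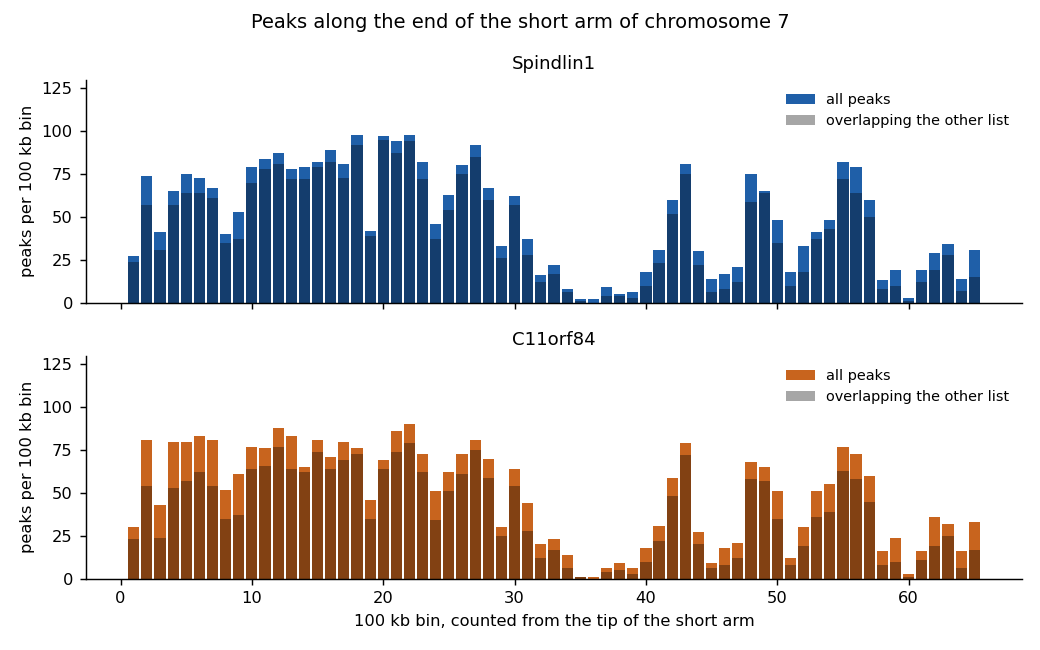
Number of Spindlin1 peaks (upper panel) and C11orf84 peaks (lower panel) in each of 65 bins of 100 kb, counted from the tip of the arm, with the peaks that overlap the other list shaded. Both profiles are mostly high up to bin 28, nearly empty around bins 35 and 36, and high again in bins 42, 43, 48, 55 and 56.

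The profile was not even, and 5 stretches, drawn after it had been seen, describe it. The outermost 1 Mb held 594 Spindlin1 and 668 C11orf84 peaks. The next 2 Mb, from 1 to 3 Mb, held 1534 and 1415 peaks, or 767 and 707.5 per Mb, and peaks covered 40.9% and 45.1% of its bases. From 3 to 4 Mb there were only 125 Spindlin1 and 142 C11orf84 peaks over 3.07% and 3.68% of the bases. Inward of that both lists had more peaks again, with 442 and 428 peaks from 4 to 5 Mb and 523 and 534 peaks from 5 to 6.5 Mb.

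The fullest bin of 100 kb, at 2.1 to 2.2 Mb, had 98 Spindlin1 and 90 C11orf84 peaks, which covered 58.5% and 65.1% of it. It was followed by the bins at 2.0 to 2.1 Mb (94 and 86 peaks), 1.1 to 1.2 Mb (87 and 88), 1.7 to 1.8 Mb (98 and 76) and 2.6 to 2.7 Mb (92 and 81). All 5 lay between 1 and 3 Mb. Regions less than or equal to 1 kb apart joined there into long runs, the longest from 1456102 to 1546131 (90.0 kb), in which 74 Spindlin1 and 62 C11orf84 peaks together covered 84.03% of the bases. The next longest runs were chr7:1110471-1150797 (46 Spindlin1 and 46 C11orf84 peaks) and chr7:1572784-1610361 (37 and 33 peaks).

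The emptiest bins were at 3.4 to 3.5 Mb (2 Spindlin1 peaks and 1 C11orf84 peak), 3.5 to 3.6 Mb (2 and 1), 5.9 to 6.0 Mb (3 and 3), 3.8 to 3.9 Mb (6 and 6) and 3.7 to 3.8 Mb (5 and 9). The longest stretch without a peak of either protein ran from 3457973 to 3576946, 119 kb, and the next from 5918764 to 6017608, 98.8 kb. Gaps of at least 10 kb numbered 69 among 3424. The crowding of this arm end was thus interrupted by nearly empty stretches.

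Peaks of the 2 proteins overlapped more often here than over the whole lists. At least 1 shared base was found for 2745 Spindlin1 peaks (85.3%, 84.03 to 86.5), against 69.7% over chromosomes 1 to 22 and X and 62.7% (61.4 to 64.04) on the rest of chromosome 7. For C11orf84 it was found for 2474 peaks (77.6%, 76.1 to 79.1), against 57.6% over chromosomes 1 to 22 and X and 52.7% (51.4 to 53.9) on the rest of chromosome 7. C11orf84 peaks covered 24.5% and Spindlin1 peaks 21.5% of the bases here, and the part of this crowding in the overlap was not tested.

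Some other crowded arm ends had shares of the same order, and others lay above or below. On chromosome 17, in the last 6.5 Mb of the long arm (17q), 86.8% (85.7 to 87.9) of Spindlin1 and 77.1% (75.8 to 78.4) of C11orf84 peaks overlapped. At the 9q end it was 84.1% (82.8 to 85.3) and 71.0% (69.4 to 72.5), and at the 16p end it was 84.1% (82.7 to 85.4) and 73.5% (71.8 to 75.1). The interval of the Spindlin1 share on 7p overlapped those of all 3 ends. The C11orf84 share on 7p lay above those of 9q and 16p by more than the counting error, and within it of that of 17q. Among 35 arm ends with at least 100 peaks of each list, 7p had rank 3 for the Spindlin1 share and rank 2 for the C11orf84 share. The also crowded 8q end had higher shares, 89.9% for Spindlin1 and 85.0% for C11orf84. The crowded ends of 16q (81.6% and 70.4%) and 22q (79.7% and 68.1%) had lower ones.

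**Figure D2:**
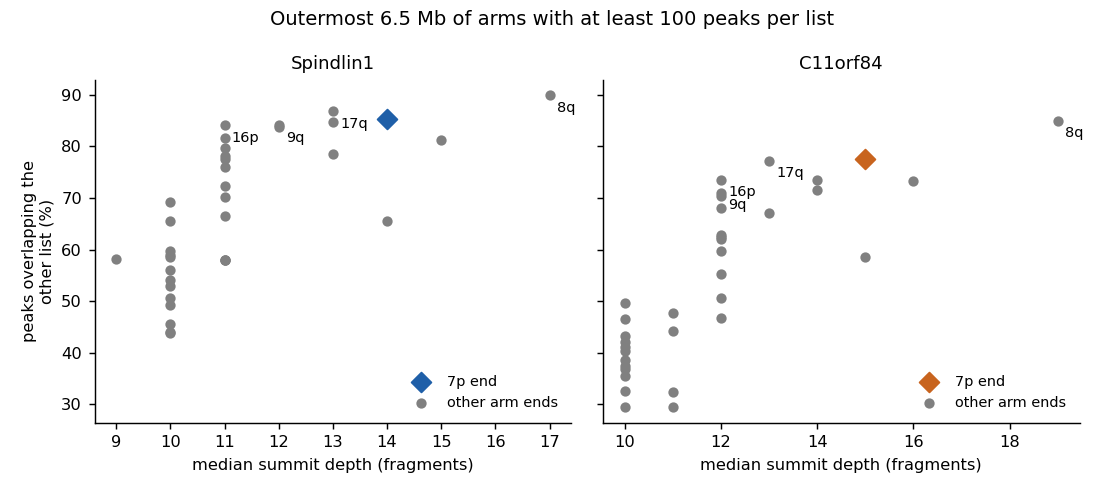
Share of peaks that overlap the other list (vertical axis, percent) against median summit depth (horizontal axis, fragments) for 35 arm ends of 6.5 Mb, Spindlin1 on the left and C11orf84 on the right. The diamond of 7p stands at 14 fragments and 85.3% for Spindlin1 and at 15 fragments and 77.6% for C11orf84, lower in depth and in share than 8q for either protein.

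The overlap was highest in the dense stretch and lowest in the sparse one. From 1 to 3 Mb, 91.9% (90.4 to 93.2) of Spindlin1 and 86.4% (84.5 to 88.1) of C11orf84 peaks were shared. From 3 to 4 Mb the shares were 68.0% (59.1 to 76.1) and 60.6% (52.02 to 68.7), close to those of the whole lists. In the outermost 1 Mb, 84.2% (81.0 to 87.02) of Spindlin1 and 69.3% (65.7 to 72.8) of C11orf84 peaks were shared. The Spindlin1 share was also the higher over chromosomes 1 to 22 and X, 69.7% against 57.6%, and at the 9q end, 84.1% against 71.0%. The bins of 500 kb in the outermost 1 Mb had 0.898 and 0.881 Spindlin1 peaks for each C11orf84 peak. The 4 bins from 1 to 3 Mb had between 1.04 and 1.19. In 9 of the 10 bins of 100 kb in the outermost 1 Mb, Spindlin1 had fewer peaks than C11orf84, and in 14 of the 20 bins from 1 to 3 Mb it had more. The whole lists also hold fewer Spindlin1 peaks (153468) than C11orf84 peaks (177639).

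A C11orf84 interval held several Spindlin1 peaks more often than the reverse, and the part of this in the peak numbers was not tested. From 1 to 3 Mb, 262 of 1415 C11orf84 peaks (18.5%, 16.5 to 20.6) overlapped at least 2 Spindlin1 peaks, while 136 of 1534 Spindlin1 peaks (8.87%, 7.49 to 10.4) overlapped at least 2 C11orf84 peaks. In the outermost 1 Mb these shares were 9.88% (7.72 to 12.4) and 6.23% (4.42 to 8.48). Over the whole arm end 413 C11orf84 peaks (12.96%, 11.8 to 14.2) held 2 or more Spindlin1 peaks, against 5.43% (5.32 to 5.54) over the rest of chromosomes 1 to 22 and X. The reverse shares were 6.87% (6.02 to 7.80) and 4.13% (4.03 to 4.23), so the direction was the same over the rest. From 3 to 4 Mb it was the other way, on few peaks, with 1 of 142 C11orf84 and 2 of 125 Spindlin1 peaks. As many as 5 Spindlin1 peaks fell on 1 C11orf84 interval, among others at chr7:609737-612293, chr7:1034401-1037683 and chr7:1063293-1066540, which are between 2557 and 3283 bp wide. In the dense stretch C11orf84 covered more bases than Spindlin1, 902 kb against 818 kb, with fewer peaks.

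Summits stood on more fragments in this arm end than over most of the genome. Spindlin1 summits had a median depth of 14 fragments (quartiles 11 and 17) and C11orf84 summits of 15 fragments (quartiles 12 and 19), against 11 and 12 over the rest of chromosomes 1 to 22 and X. Peaks with a −log10 q of 10 or more numbered 1026 for Spindlin1 (31.9%, 30.3 to 33.5), against 11.8% over chromosomes 1 to 22 and X. For C11orf84 they numbered 1238 (38.8%, 37.1 to 40.6), against 15.7%. Among the 35 arm ends 7p had rank 3 in median depth for both proteins, shared with 18p at 14 and 15 fragments. The end of 8q, with 3396 Spindlin1 and 3176 C11orf84 peaks, had 17 and 19 fragments, and 12p had 15 and 16. The crowded ends of 17q, 9q and 16p had 11 to 13 fragments for Spindlin1 and 12 to 13 for C11orf84. In a pool of cells, more copies of the DNA and more protein on each copy cannot be told apart by summit depth.

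The depth was not spread evenly, and it stepped at about 1 Mb from the tip. From 0.9 to 1.0 Mb the median was 11 fragments for both proteins, and from 1.0 to 1.1 Mb it was 14 for Spindlin1 and 16.5 for C11orf84. The outermost 1 Mb as a whole had medians of 11 and 12 fragments, the same as the rest of chromosomes 1 to 22 and X. The stretch from 1 to 3 Mb had 16 and 17 fragments, and the parts farther in had 13 for Spindlin1 and 14 or 15 for C11orf84. The higher depth of the arm end thus lay inward of 1 Mb.

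Local background also differed along the arm end, and its median changed 1 bin of 100 kb farther in than depth. The lowest background in each list is called the floor, and it was 0.949 fragments for Spindlin1 and 1.04 fragments for C11orf84. From 1 to 3 Mb, 34.2% (31.8 to 36.7) of Spindlin1 and 30.6% (28.2 to 33.1) of C11orf84 peaks stood at the floor, against 75.4% (71.8 to 78.8) and 74.3% (70.8 to 77.5) in the outermost 1 Mb. From 0.9 to 1.0 Mb, 91.1% and 79.2% stood at the floor. In the bin from 1.0 to 1.1 Mb, where depth stepped, 63.1% and 55.3% did. The lowest shares in the outermost 1 Mb, from 0.5 to 0.6 Mb, were 63.01% and 54.2%. From 1.0 to 1.1 Mb the median background was still 1.00 for both proteins, as it is wherever most peaks stand at the floor. From 1.1 to 1.2 Mb the shares at the floor were 42.5% and 31.8%, and the medians 1.08 and 1.09 times the floor. From 3 to 4 Mb only 8 of 125 and 8 of 142 peaks did. Over the whole arm end, 1342 Spindlin1 peaks (41.7%) and 1295 C11orf84 peaks (40.6%) stood at the floor, against 48.2% and 49.3% over chromosomes 1 to 22 and X. Median background was 1.14 and 1.09 times the floor in the arm end, 1.00 and 1.00 in its outermost 1 Mb, and 1.28 and 1.33 from 3 to 4 Mb, where peaks were fewest.

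The step in depth was also present among peaks set against 1 and the same background. At the floor, median depth from 1 to 3 Mb was 15 fragments for Spindlin1 (14 to 16) and 16 for C11orf84 (15 to 17), against 11 (11 to 11) and 11 (11 to 12) in the outermost 1 Mb. Depths of 15 fragments or more were reached by 285 of 525 Spindlin1 peaks at the floor from 1 to 3 Mb (54.3%, 49.9 to 58.6), against 42 of 448 (9.38%, 6.84 to 12.5) in the outermost 1 Mb. For C11orf84 it was 264 of 433 (61.0%, 56.2 to 65.6), against 71 of 496 (14.3%, 11.4 to 17.7). Since the floor hides any background below it, a step in the amount of DNA cannot be told apart from a step in enrichment here.

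**Figure D3:**
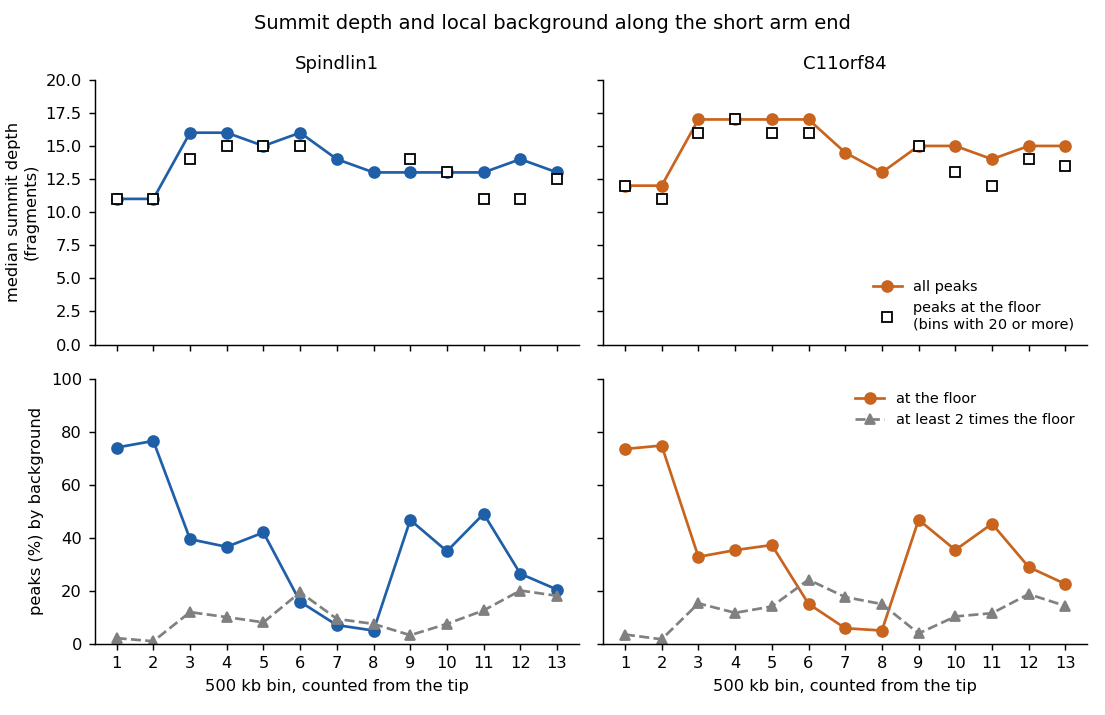
Median summit depth (upper panels, fragments) and the share of peaks at the floor or at 2 times the floor and more (lower panels, percent) in 13 bins of 500 kb counted from the tip, Spindlin1 on the left and C11orf84 on the right. Between bin 2 and bin 3 the depth of all peaks goes from 11 to 16 fragments for Spindlin1 and from 12 to 17 for C11orf84, and the share at the floor drops from 76.6% to 39.5% and from 74.9% to 32.8%.

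Peaks whose background was 2 or more times the floor numbered 316 for Spindlin1 (9.82%, 8.81 to 10.9) and 378 for C11orf84 (11.9%, 10.8 to 13.03), against 9.07% and 9.19% over chromosomes 1 to 22 and X. The Spindlin1 share was near that background level. Such peaks on 7p were unevenly placed, with 9 Spindlin1 and 17 C11orf84 peaks in the outermost 1 Mb, 186 and 228 from 1 to 3 Mb, and 86 and 78 from 5 to 6.5 Mb. The bin of 100 kb at 2.5 to 2.6 Mb had the most, 30 of 80 Spindlin1 peaks and 28 of 73 C11orf84 peaks. The highest background of a Spindlin1 peak was 9.70 times the floor, at chr7:5229660-5230040, where 25 fragments gave a fold of only 2.55. That of a C11orf84 peak was 7.09 times the floor, at chr7:1499305-1499992, where 21 fragments gave a fold of 2.63. Fold was low at both in spite of deep summits.

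Overlap was higher at deeper summits in both lists, and at each depth class its share was higher in the arm end than over the rest of chromosomes 1 to 22 and X. Among peaks at the floor with 6 to 10 fragments, 73.4% (68.5 to 77.9) of Spindlin1 peaks in the arm end were shared, against 58.7% (58.2 to 59.2) over the rest of chromosomes 1 to 22 and X. With 14 to 16 fragments the shares were 94.9% (91.6 to 97.2) and 85.1% (84.3 to 85.8). With 20 fragments or more they were 99.0% (94.6 to 99.97) and 98.2% (96.6 to 99.2), which counting error does not separate. For C11orf84 they were 56.9% (51.2 to 62.4) and 40.2% (39.7 to 40.7) at 6 to 10 fragments, 88.1% (83.6 to 91.8) and 73.6% (72.8 to 74.4) at 14 to 16, and 99.4% (96.9 to 99.99) and 93.4% (91.8 to 94.9) at 20 or more. Against the other crowded ends this was not so. Among floor peaks with 6 to 10 fragments, the Spindlin1 share of 73.4% on 7p was below the 81.4% (78.5 to 83.995) of 16p by more than the counting error. The intervals of 80.6% (77.1 to 83.8) on 17q and of 74.5% (71.4 to 77.5) on 9q overlapped that of 7p. The C11orf84 share of 56.9% on 7p was set beside 63.2% (58.3 to 67.9) on 17q, 64.3% (60.5 to 67.99) on 16p and 53.8% (50.2 to 57.4) on 9q, intervals that overlap that of 7p. With 11 to 13 fragments 7p was below 17q by more than the counting error in both lists. The Spindlin1 shares were 86.4% (82.8 to 89.5) and 91.9% (89.7 to 93.7). The C11orf84 shares were 71.4% (66.5 to 75.8) and 79.9% (76.8 to 82.8). At this depth 9q and 16p had 85.4% and 85.3% for Spindlin1 and 70.6% and 73.3% for C11orf84, with intervals that overlap those of 7p. The order changed with depth. With 14 to 16 fragments the Spindlin1 share of 94.9% on 7p was above the 92.3% of 17q, 91.9% of 9q and 90.9% of 16p. The C11orf84 share of 88.1% there stood beside 88.6%, 82.6% and 86.3%, in the same order. With 14 to 16 fragments all intervals of the other ends overlapped those of 7p.

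**Figure D4:**
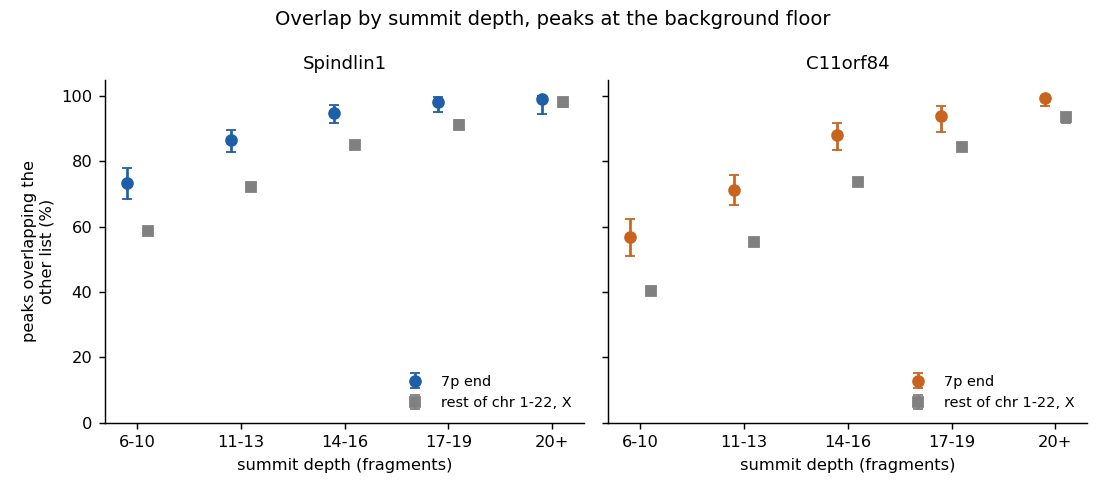
Share of peaks that overlap the other list (percent, with 95% exact binomial intervals) by summit depth in fragments, for peaks at the background floor in the arm end (coloured) and over the rest of chromosomes 1 to 22 and X (grey), Spindlin1 on the left and C11orf84 on the right. In the arm end the Spindlin1 share goes from 73.4% at 6 to 10 fragments to 99.0% at 20 or more, and the C11orf84 share from 56.9% to 99.4%.

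Where 1 Spindlin1 peak matched 1 C11orf84 peak and no other, the summits lay close to each other. There were 1752 such pairs in the arm end, with a median distance of 41 bp between summits and 55.4% at most 50 bp apart, against 46 bp and 52.7% in 80447 pairs of the rest of chromosomes 1 to 22 and X. Pairs had to overlap, which limits these distances. From 3 to 4 Mb, where peaks were few, the 81 pairs had a median distance of 32 bp, and in the outermost 1 Mb the 342 pairs had 59 bp.

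Summit depths of paired peaks went together. The Pearson correlation of their fragments was 0.612 over the 1752 pairs, a description across sites that share their DNA and background. It was higher, 0.729, over the 80447 pairs of the rest of chromosomes 1 to 22 and X. Within the arm end the correlation was 0.296 in the outermost 1 Mb and between 0.536 and 0.642 in the other stretches. The outermost 1 Mb also had a narrower range of depth, up to 19 and 25 fragments, against 32 and 35 from 1 to 3 Mb. C11orf84 was the deeper of the pair in 999 pairs (57.0%) and Spindlin1 in 573 (32.7%). The median ratio of Spindlin1 over C11orf84 was 0.923, with a range of 0.619 to 1.40 from the 5th to the 95th percentile. Over the rest of chromosomes 1 to 22 and X, C11orf84 was the deeper in 53.7% and Spindlin1 in 33.7%, with a median ratio of 0.929. The floor of the background was also lower for Spindlin1, 0.949 against 1.04 fragments, and its part in the ratio was not tested. The median ratio was between 0.905 and 1 in all 5 stretches, with the step at 1 Mb present in both proteins.

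**Figure D5:**
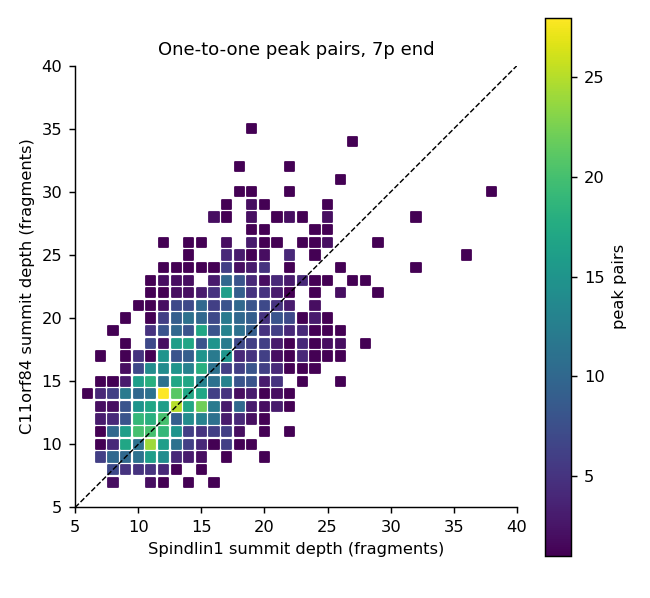
Summit depth of the Spindlin1 peak (horizontal axis, fragments) and of the C11orf84 peak (vertical axis, fragments) in 1752 one-to-one pairs of the arm end, with the colour giving the number of pairs at each position and the dashed line equal depth. More pairs lie above the line (999) than below it (573).

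The pairs that departed most from equal depth were shallow in one list. Spindlin1 had 16 fragments at chr7:358407-358765 where C11orf84 had 7, and 20 fragments at chr7:4237138-4237444 where C11orf84 had 9, ratios of 2.29 and 2.22. In the other direction Spindlin1 had 7 fragments at chr7:650958-651129 where C11orf84 had 17, and 8 at chr7:183262-183433 where C11orf84 had 19, ratios of 0.412 and 0.421. All 4 stood at the floor in both lists, and 1 library each gives no measure of how often such ratios return.

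The peak of highest Spindlin1 fold lay apart from the dense stretch, at chr7:4146829-4147063 with a fold of 14.3 at 28 fragments, and ranked 22 in the whole list. C11orf84 reached 8.92 there, with 18 fragments. Another 5 Spindlin1 peaks reached 13.9 with 26 fragments, all at the floor. They were chr7:1382992-1383913, chr7:1688568-1689178, chr7:1882698-1883214, chr7:1941017-1941854 and chr7:2040836-2042005. The strongest C11orf84 peaks on them had folds of 8.45, 11.3, 11.8, 9.33 and 12.3, in the same order and relative to their own list. The other leading Spindlin1 peaks, beside those that led in both lists, were chr7:1682604-1682859 (13.3, C11orf84 9.33) and chr7:1265085-1265407 (12.96, C11orf84 7.51). All but the first of the 10 leading Spindlin1 peaks lay between 1 and 3 Mb.

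The peak of highest C11orf84 fold was chr7:1350347-1352224, with a fold of 15.2 from 30 fragments at the floor, and it ranked 11 in the whole list. Spindlin1 had 2 peaks on it, the stronger with a fold of 8.21 at 15 fragments. The next 4 C11orf84 peaks had a fold of 14.7 at 29 fragments: chr7:1889737-1892210, chr7:2100183-2100466, chr7:2109191-2110286 and chr7:5646267-5647473. A fold of 14.3 or 14.2 was reached at chr7:1278270-1278627, chr7:1112876-1113136, chr7:1892275-1894044 and chr7:2070097-2070568, where the strongest Spindlin1 folds were 9.13, 8.72, 12.3 and 10.3, in the same order. The only one of the 10 leading C11orf84 peaks outside the stretch from 1 to 3 Mb was chr7:5646267-5647473, where the Spindlin1 fold was 10.3 at 19 fragments.

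Both proteins led together at 2 places. At chr7:2100192-2100448 Spindlin1 had a fold of 13.3 at 25 fragments and C11orf84 14.7 at 29 fragments, on peaks of 257 and 284 bp. At chr7:1936606-1938192 Spindlin1 had a fold of 13.3 at 25 fragments, and the C11orf84 peak chr7:1936651-1940238 had 14.2 at 28. All of these stood at the floor. Of the 100 peaks of highest fold in the arm end, 76 Spindlin1 and 68 C11orf84 peaks lay from 1 to 3 Mb, and 0 and 1 in the outermost 1 Mb. Of all peaks of the arm end, 1534 of 3218 and 1415 of 3187 lay from 1 to 3 Mb. In each list 99 of the 100 of highest fold were shared. Deep peaks were mostly shared elsewhere too. At the floor with 20 fragments or more it was 98.2% and 93.4% over the rest of chromosomes 1 to 22 and X.

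Peaks were wider here than over the genome. The median width was 289 bp for Spindlin1 (280 to 298) and 324 bp for C11orf84 (313 to 334), against 228.5 and 247 bp over the rest of chromosomes 1 to 22 and X. The ends of 17q, 9q and 16p had 280, 277 and 287 bp for Spindlin1 and 311, 316 and 326 bp for C11orf84, within or close to the same intervals. Peaks were wider at the 8q end (328 and 364 bp) and narrower at the ends of 16q (254 and 291 bp) and 22q (249 and 277 bp). From 3 to 4 Mb on 7p the medians were 208 and 221.5 bp, below those of the rest of chromosomes 1 to 22 and X. Widths of at least 2 kb were reached by 34 Spindlin1 peaks (1.06%, 0.733 to 1.47), against 0.176% over chromosomes 1 to 22 and X. For C11orf84 it was 72 peaks (2.26%, 1.77 to 2.84), against 0.311%. The 9q end had nearly the same shares, 1.02% (0.701 to 1.42) for Spindlin1 and 1.86% (1.44 to 2.36) for C11orf84. Of the wide peaks on 7p, 32 Spindlin1 and 61 C11orf84 peaks lay from 1 to 3 Mb, while the outermost 1 Mb had 0 of 594 Spindlin1 and 1 of 668 C11orf84 peaks. Summit depth was also higher from 1 to 3 Mb, and its part in the width was not tested.

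The widest Spindlin1 peak, chr7:1905332-1909901, spanned 4570 bp with 22 fragments at its summit and a background of 1.71 times the floor. The C11orf84 peak on it, chr7:1905347-1909877, was 4531 bp wide with 23 fragments at the floor, so both proteins had nearly the same outline there. The next widest Spindlin1 peaks were chr7:1360519-1364683 (4165 bp), chr7:4854777-4858550 (3774 bp), chr7:1586532-1590212 (3681 bp) and chr7:1486281-1489879 (3599 bp). For C11orf84 the widest was chr7:1506494-1512146, at 5653 bp, on which 5 Spindlin1 peaks lay and whose background was 2.18 times the floor. It was followed by chr7:1487640-1492600 (4961 bp) and, after the peak already given, by chr7:1895157-1899655 (4499 bp) and chr7:2579396-2583639 (4244 bp).

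Peaks without overlap were shallower and narrower, and few of them lay far from the other protein. The 473 unshared Spindlin1 peaks had a median of 11 fragments and 198 bp, against 14 fragments and 323 bp for the shared ones. The 713 unshared C11orf84 peaks had 12 fragments and 213 bp, against 16 fragments and 388 bp. Over the rest of chromosomes 1 to 22 and X, unshared Spindlin1 peaks had 10 fragments and 191 bp, against 12 and 263 bp. Unshared C11orf84 peaks had 11 fragments and 208 bp there, against 13 and 310 bp. A narrow peak in the arm end also has less room to overlap, and the part of this was not tested. No C11orf84 peak lay within 5 kb of 29 Spindlin1 peaks (0.901%), against 8.36% over chromosomes 1 to 22 and X, and no Spindlin1 peak lay within 5 kb of 31 C11orf84 peaks (0.973%), against 10.9%. Such distances follow from the crowding by which the stretch was picked, and nothing is read from them. The other crowded ends had 0.156% on 17q, 0.400% on 9q and 0.849% on 16p for Spindlin1, and 0.629%, 1.32% and 1.51% for C11orf84. On 7p the stretch from 3 to 4 Mb held 10 and 12 of these peaks.

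The strongest Spindlin1 peak without overlap, chr7:2049778-2050049, had a fold of 11.8 at 22 fragments and lay 86 bp from the nearest C11orf84 peak. The strongest for C11orf84, chr7:5251431-5251667, had a fold of 12.3 at 24 fragments and lay 151 bp from a Spindlin1 peak. Of those more than 5 kb away, the Spindlin1 peaks of highest fold were chr7:1821086-1821303 (8.74 at 18 fragments), chr7:6017609-6017886 (7.68 at 15) and chr7:4542249-4542505 (7.08 at 14). The C11orf84 ones were chr7:3319393-3319618 (8.53 at 17 fragments), chr7:3814501-3814711 (7.52 at 18) and chr7:5058459-5058652 (6.60 at 15). By fold, these 6 had ranks between 5971 and 49698 in their whole lists. A call made in 1 list alone gives no measure of absence of the other protein.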

How the data were processed

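ChIP-seq peak lists of Spindlin1 and C11orf84, 1 library each, were used. Reads were aligned with Bowtie 1.2.2 to hg19, per the submitters' processing notes, while the sources used here do not name the peak caller, its threshold or its control. Each deposited fold (a ratio), −log10 p-value, −log10 q-value and score is the authors' own, the score being 10 times the −log10 q-value with decimals dropped in all 153468 and 177639 peaks. Positions count from 1.

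Summit depth k and background λ were solved from fold = (k + 1)/(λ + 1) and p = P(X > k) for a Poisson variable of mean λ. A whole k met the deposited values of every peak, with a largest error of 0.000174 in −log10 p. Peaks within 0.1% of the lowest background were taken as at the floor. Total read numbers are unknown. Sharing means an overlap of at least 1 bp with the other list. Comparisons used chromosomes 1 to 22 and X. Arm ends are the outermost 6.5 Mb, counted on long arms from the last peak. Shares carry exact Clopper-Pearson intervals and medians binomial order-statistic intervals, both at 95%. The steps were tested on simulated data. Scripts ran in Python 3.11.15 with SciPy 1.17.1, pandas 2.3.3, NumPy 2.4.6 and, for plots, matplotlib 3.10.9.

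Named peaks are the 10 of highest fold, the 5 widest and the 3 of highest fold more than 5 kb from the other list, for each protein, and named bins the 5 fullest and 5 emptiest of 100 kb. The longest runs and gaps, the extreme pairs, the highest backgrounds, the peaks without overlap and the 5 stretches were chosen after their values were seen. The members, the gene lists and the rules were chosen with earlier results of these data known. The planned share of peaks inside genes and the rule for genes could not be computed, as no hg19 annotation was used.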

Additional observations from a re-analysis of the deposited data

How the results depend on the processing

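Asking for 50% of both intervals to be covered gave overlaps of 58.3% for Spindlin1 and 58.9% for C11orf84, against 47.3% and 40.7% over the rest of chromosomes 1 to 22 and X. With summits at most 200 bp apart these were 59.5% and 60.3%, against 55.0% and 47.3%. Keeping from either list the peaks whose −log10 q was 10 or more gave 74.95% and 59.0%, against 47.5% and 29.6%. The arm end was above the rest under each of these rules. Summits from 0 to 5 Mb gave 87.2% and 79.5%. The same limit on q gave a median fold of 8.76 and 8.84, a median depth of 18 and 19 fragments, and a median width of 500 and 556.5 bp, and a median background of 1.08 times the floor for Spindlin1. Peaks at the floor alone, an alternative chosen after seeing the data, had a median depth of 13 and 13 fragments and a median width of 302 and 343 bp. The other 11 of 30 alternatives stayed within the counting error of the values reported. The edge at 7 Mb was also chosen after seeing the data. No paired analysis was possible because each antibody had 1 library. The share of peaks inside genes was not run under any setting. A median depth of 14 or 15 fragments limits what a missing call in 1 list can show.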
